A study of Mus musculus with 23 samples.

Results

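Bulk MC38 tumors were read for 10 genes of neutrophils and of the signals that call them: the chemokines Cxcl1, Cxcl2 and Cxcl5, the growth factor Csf3, the receptors Csf3r and Cxcr2, and the neutrophil markers S100a8, S100a9, Retnlg and Ly6g. They were listed by symbol, matched to the Ensembl identifiers of the deposited table through a GENCODE mouse annotation, and all 10 were found among its 26869 genes. Neutrophils leave the bone marrow under the control of the growth factor G-CSF, encoded by Csf3, which acts through its receptor Csf3r. They are drawn into tissue by CXC chemokines with an ELR motif, of which Cxcl1, Cxcl2 and Cxcl5 are the best known in the mouse, acting through Cxcr2. S100a8 and S100a9 form calprotectin, an abundant protein of the neutrophil cytosol, and Ly6g is the surface antigen by which mouse neutrophils are usually recognized. Csf3r and the S100 genes are also expressed by monocytes, and Cxcl1 and Cxcl2 are made by macrophages, fibroblasts and tumor cells.

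MC38 is a colon cancer cell line of C57BL/6J origin, and the cells were injected under the skin of female mice aged 8 to 12 weeks. Each host was the F1 offspring of C57BL/6J and 1 Collaborative Cross line, a recombinant inbred line that carries the haplotypes of several founder strains, so all tumors of a host line shared a genotype. At 75 to 110 mm3 each mouse received 1 intraperitoneal dose of 200 µg of an antibody to PD-1 (aPD1, clone 29F.1A12) or of an isotype control antibody (clone 2A3), and the tumor was taken 48 h later and frozen in medium with DMSO. The study's text calls 3 lines aPD1 responders (R), namely C57BL/6J x CC001/UncJ (CC001F1), C57BL/6J x CC002/UncJ (CC002F1) and C57BL/6J x CC075/UncJ (CC075F1). It calls 3 lines non-responders (NR), namely C57BL/6J x CC036/UncJ (CC036F1), C57BL/6J x CC079/TauUncJ (CC079F1) and C57BL/6J x CC080/TauUncJ (CC080F1). Each line and antibody had 2 tumors from separate mice, except CC080F1 with aPD1, which had 1, giving 23 libraries. R against NR is therefore a comparison of 3 genotypes with 3 others, whatever the number of tumors, and a tumor's own response was not observed at 48 h.

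Library totals ranged from 14493982 to 71868238 counts. The 6 shallow libraries, which held 14493982 to 18354547 counts, were 2 of 12 R tumors and 4 of 11 NR tumors, and the other 17 held at least 37242336. Low counts were more often even than odd: 63.1% of the whole values from 1 to 20 over all genes were even, with 24512 values of 2 and 12681 of 1, and among the 10 genes 54 of 68 such values were even. A count of 2 or 4 is therefore read here as barely above 0. Values below are DESeq2 normalized counts unless another unit is named, and they compare 1 gene between tumors, not different genes with each other.

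Set per length, the members differed widely in level. Cxcl1 and Csf3r had mean levels of 4.37 and 3.44 CPM per kb of exon (counts scaled to library size, then divided by exon length), Cxcl2 had 1.11, and S100a9 and S100a8 had 0.696 and 0.435. Cxcr2 followed with 0.137, Cxcl5 with 0.0869, Retnlg with 0.0513, Csf3 with 0.0298 and Ly6g with 0.0108. The levels per length by gene show that Cxcl1 and Csf3r were above 69.5% and 66.5% of all genes on this scale, and that Ly6g was above 11.5%. Ly6g was at 0 counts in every tumor but 1, where it had 4, and 3 counts correspond to 0.0422 to 0.203 CPM depending on the library. Retnlg, which encodes a resistin-like protein of neutrophils, was found in 8 of 23 tumors at no more than 8 counts, and Csf3 in 10 of 23 at no more than 14.

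**Figure D1:**
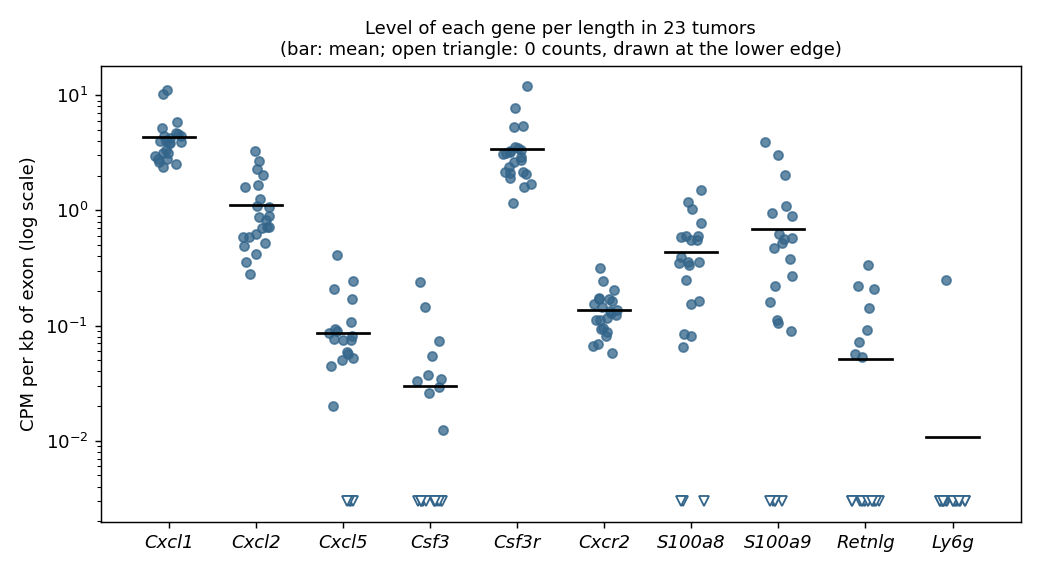
Level of each of the 10 genes in CPM per kb of exon (log axis) in 23 tumors. Points are tumors, bars are means, and open triangles are tumors with 0 counts drawn at the lower edge. Cxcl1 and Csf3r lie highest, with means of 4.37 and 3.44, and Ly6g is above 0 in 1 tumor.

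Other neutrophil genes were checked beside them. Of 41 genes made up of the 10 and of the 2 neutrophil lists used here, 10 never exceeded 10 counts in any tumor, among them the primary granule genes Mpo (myeloperoxidase) and Elane (neutrophil elastase), which are transcribed mainly in precursors in the bone marrow, the antimicrobial peptide gene Camp, and the stefin genes Stfa1, Stfa2l1 and Stfa3. The receptor Cxcr1, a relative of Cxcr2, had at most 4 counts. The rest of the 41 exceeded 10 counts in at least 1 tumor, among them the granule genes Ctsg (at most 200 counts, found in 20 tumors), Mmp8 (152, in 22), Ltf (131, in 20), Lcn2 (127, in 21) and Cd177 (42, in 18). Of the members, Ly6g and Retnlg were those that never exceeded 10 counts. Csf3 was also near 0, with at most 14 counts in a tumor and a median of 0 CPM. Of 6 eosinophil and mast cell genes, Cpa3 and Mcpt4 were found in all 23 tumors, with at most 269 and 175 counts. Prg2 and Epx of that list never exceeded 10 counts. Which cells held the RNA of the granule genes was not tested. In bulk RNA, fewer cells of a type and less RNA per cell cannot be told apart.

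Cxcl1 encodes a ligand of Cxcr2 and lies at chr5:90891241-90893115 (GRCm38, plus strand). Its level was set apart in 1 host line. The CC036F1 tumors had 317 and 415 normalized counts with isotype and 726 and 779 with aPD1, while the tumors of the other 5 lines ranged from 169 to 374. Both aPD1 tumors of CC036F1 were above every other tumor, and its isotype tumors were the highest and the second highest with isotype. The means by line were 559 ± 228 for CC036F1, 285 ± 71.4 for CC079F1, 280 ± 54.9 for CC075F1, 262 ± 55.7 for CC001F1, 246 ± 57.2 for CC002F1 (SD, n = 4 each) and 190 ± 29.1 for CC080F1 (SD, n = 3). Neighbours in this order overlapped within 1 SD at every step.

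Cxcl2, a second ligand of Cxcr2, lies 10.8 kb further along the chromosome, at chr5:90903871-90905938 (plus strand). The CC036F1 tumors had 56.5 and 46.0 normalized counts with isotype and 177 and 255 with aPD1. CC075F1 tumors had 123 and 67.5 with isotype and 161 and 211 with aPD1. The 3 lowest values of all tumors were from CC002F1, 21.8 and 27.6 with isotype and 32.2 with aPD1, beside 83.8 in its other aPD1 tumor. Line means ran from 141 ± 60.3 in CC075F1 (SD, n = 4) and 133 ± 100.2 in CC036F1 (SD, n = 4) to 44.96 ± 3.86 in CC080F1 (SD, n = 3) and 41.3 ± 28.6 in CC002F1 (SD, n = 4), and the only neighbours that did not overlap within 1 SD were CC001F1, with 66.1 ± 14.7 (SD, n = 4), and CC080F1.

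**Figure D2:**
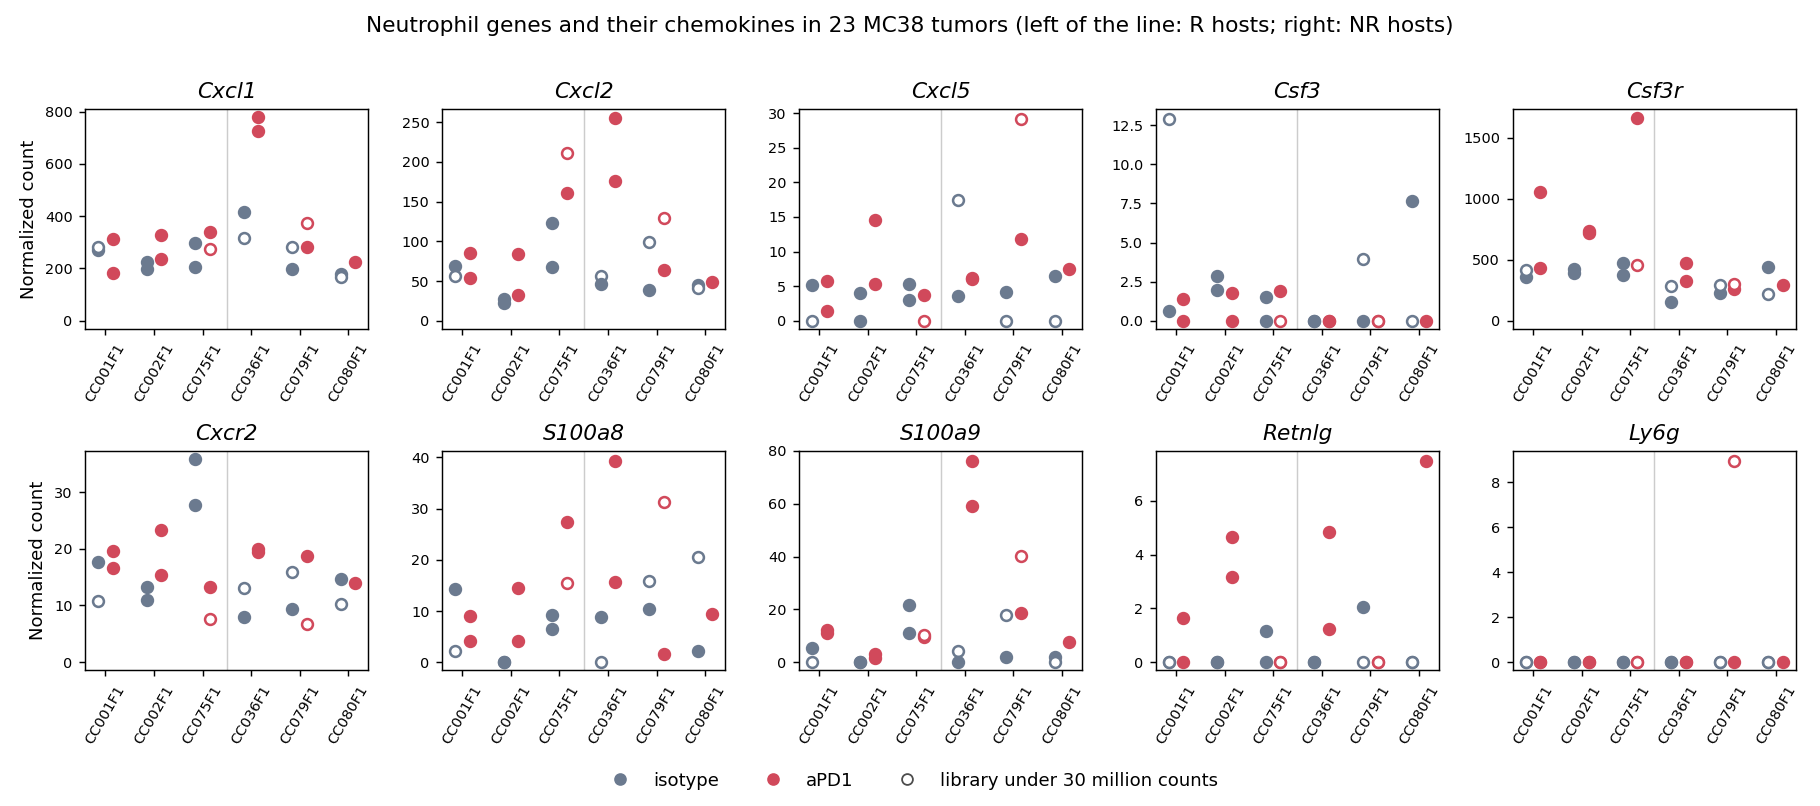
Normalized count of each of the 10 genes by host line, R lines left and NR lines right of the grey line, each panel on its own linear axis. Each point is 1 tumor, coloured by antibody, and open points are the 6 libraries under 30000000 counts. The CC036F1 aPD1 tumors are highest for Cxcl1 (726 and 779), Cxcl2 has its highest value there (255), and S100a9 its 2 highest (59.3 and 76.2).

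The promoters of Cxcl1 and Cxcl2 are shown because both genes varied together across tumors and both hold the same site. They come from RefSeq on GRCm38.p6, reach from 250 bases before to 50 bases after the annotated start, and are written 5′ to 3′ on the plus strand, at chr5:90890995-90891294 for Cxcl1 and chr5:90903649-90903948 for Cxcl2. Capitals mark the letters GGGAATTTCC, a form of the site bound by NF-kB, which begin 71 bases before the start of Cxcl1 and 97 bases before that of Cxcl2.
Cxcl1: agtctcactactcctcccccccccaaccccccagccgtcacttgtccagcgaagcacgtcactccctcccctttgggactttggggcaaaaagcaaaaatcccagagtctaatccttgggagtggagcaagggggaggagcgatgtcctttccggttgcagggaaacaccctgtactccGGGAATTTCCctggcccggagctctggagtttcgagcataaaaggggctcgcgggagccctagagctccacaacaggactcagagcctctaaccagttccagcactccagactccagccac
Cxcl2: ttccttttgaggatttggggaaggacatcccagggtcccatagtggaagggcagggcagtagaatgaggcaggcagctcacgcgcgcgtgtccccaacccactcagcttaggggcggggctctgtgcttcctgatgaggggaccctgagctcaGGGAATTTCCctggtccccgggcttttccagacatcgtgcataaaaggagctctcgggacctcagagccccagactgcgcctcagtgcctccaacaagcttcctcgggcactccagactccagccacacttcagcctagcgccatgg
The general form of the NF-kB (kB) site was searched on both strands and was in 1480 of 32851 promoters of the same length (4.51%) and in those of 2 of the 8 members that have an entry, Cxcl1 and Cxcl2. Each of these held it once on either strand, the 2 matches overlapping at 1 place. The letters in capitals were in 29 of the 32851 promoters (0.0883%). The site was picked with these sequences in view, so its presence is a description, and a match is not evidence of binding.

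Levels of Cxcl1 and Cxcl2 differed among the 6 host lines. A likelihood ratio test in DESeq2 that dropped host line called 4 of the 10 genes, of 7 with an adjusted p, where 16% of all 19192 genes tested were called. They were Cxcl1 with an adjusted p of 3.33e-08, Cxcl2 with 0.001, S100a9 with 0.00438 and Csf3r with 0.0197. The edgeR quasi-likelihood test, which called 1782 of 18723 genes, gave adjusted p-values of 0.00149 for Cxcl1, 0.0286 for Cxcl2, 0.0497 for S100a9 and 0.0533 for Csf3r. For Cxcl1 the difference rested on CC036F1, and leaving out that line was a choice made after its values were seen. Without it the likelihood ratio test gave Cxcl1 an adjusted p of 0.517, while Cxcl2 kept 0.00125 and S100a9 0.00476. This test passed too many unchanged genes on simulated data, and edgeR was not fitted without that line. Csf3r had 0.138 without CC036F1, and its call was also lost without the second CC036F1 aPD1 tumor (0.0568), the first CC079F1 aPD1 tumor (0.0637) or the second (0.0623).

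With aPD1, Cxcl2 was higher than with isotype. Over all lines, with host line as a term, its log2 change was 0.89 ± 0.24 (SE) with an adjusted p of 0.0184, or 1.86-fold. Its mean was higher with aPD1 in all 6 lines, with both groups apart in CC002F1, CC075F1 and CC036F1. In CC080F1 the 1 aPD1 tumor, at 48.7, was slightly above the isotype tumors at 41.0 and 45.2. The mean ratio of aPD1 to isotype ran from 1.13 in CC001F1 and in CC080F1 to 4.21 in CC036F1. Cxcl1 had a log2 change of 0.41 ± 0.13 (SE) with an adjusted p of 0.0584 and did not pass. The Cxcl2 call was lost without the first CC002F1 aPD1 tumor (0.0704), without the CC036F1 line (log2 change 0.63, adjusted p of 0.141), in the 17 deep libraries (0.0882), in edgeR (0.112) and in limma (0.104).

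Within each class of lines the chemokines did not pass the aPD1 test. In R lines Cxcl2 had a median of 61.7 with isotype, with values from 21.8 to 123, and 84.8 with aPD1, from 32.2 to 211, a log2 change of 0.76 ± 0.30 (SE, adjusted p of 0.123). In NR lines the medians were 45.6 and 130, the ranges 38.2 to 99.1 and 48.7 to 255, and the log2 change 1.04 ± 0.36 (SE) with an adjusted p of 0.572. Cxcl1 in NR lines had 169 to 415 with isotype and 223 to 779 with aPD1, a log2 change of 0.66 ± 0.16 (SE) with an adjusted p of 0.0933. In R lines Cxcl1 values overlapped almost wholly, at 197 to 299 and 183 to 338, with a log2 change of 0.18 ± 0.17 (SE) and an adjusted p of 0.68.

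Neither chemokine differed between R and NR lines beyond the test's threshold. Cxcl1 was at -0.42 ± 0.20 (log2 of R over NR, SE) over all tumors with an adjusted p of 0.147, and Cxcl2 at -0.10 ± 0.32 with 0.891. Under aPD1 alone Cxcl1 was at -0.78 ± 0.29 with an adjusted p of 0.0822. Leaving out CC036F1, both all-tumor values changed sign, to 0.11 for Cxcl1 and 0.24 for Cxcl2, and neither passed.

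Cxcl5, the third ELR chemokine, at chr5:90759360-90761624, had 0 to 17.4 normalized counts with isotype and 0 to 29.1 with aPD1, and at most 25 counts in a tumor. Its highest value was in the second CC079F1 aPD1 tumor, a shallow library with 13 counts. Csf3, at chr11:98701263-98703629, was at 0 in all 5 NR aPD1 tumors and reached 12.9 normalized counts, from 6 counts, in the second CC001F1 isotype tumor. Neither gene passed any test, and for Csf3 no adjusted p was given in 6 of the comparisons because its counts were too low. The other ELR chemokines Cxcl3 and Ppbp were also low, at most 98 and 73 counts, and both differed among host lines in DESeq2 and edgeR, with edgeR adjusted p-values of 0.0169 and 0.000778. Ppbp had no more than 0.0862 CPM in any CC001F1 or CC002F1 tumor and 0.948 to 1.69 CPM in the CC075F1 tumors, the highest of all lines.

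Csf3r, the G-CSF receptor gene at chr4:126024550-126044440, was higher in R than in NR lines. With isotype, R tumors had 357 to 476 normalized counts with a median of 404, and NR tumors 157 to 439 with a median of 258. With aPD1, R tumors had 436 to 1660 with a median of 728, and NR tumors 260 to 474 with a median of 298. The groups overlapped in both arms, with isotype through the first CC080F1 tumor at 439 and with aPD1 through the first CC036F1 tumor at 474, which was above the CC001F1 tumor at 436 and the CC075F1 tumor at 457.

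With antibody as a term, over the 23 tumors, the log2 change of Csf3r in R over NR was 0.95 ± 0.22 (SE), or 1.93-fold, with an adjusted p of 0.000424 in DESeq2. It was the only 1 of the 10 genes called in that comparison, of 7 with an adjusted p, where 14.4% of 17643 genes were called. The call held in each of the 23 fits that left out 1 tumor, with log2 changes of 0.80 to 1.07. It also held in edgeR (adjusted p of 0.00461), in limma with a random effect of host line (0.0133) and without CC036F1 (0.00784). With counts summed per line, 3 lines against 3, it held as well (5.75e-09). That last fit had no antibody term, deep libraries weighed more in each sum, and CC080F1 gave 3 tumors where other lines gave 4. The values by line ran from 741 ± 614 in CC075F1, 567 ± 187 in CC002F1 and 566 ± 326 in CC001F1 to 310 ± 130 in CC036F1 and 270 ± 30.3 in CC079F1 (SD, n = 4 each), with 318 ± 111 in CC080F1 (SD, n = 3), and neighbours overlapped within 1 SD throughout. All 3 R lines ranked above all 3 NR lines.

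Split by antibody, the difference had a log2 change of 0.58 ± 0.19 (SE) with isotype and 1.35 ± 0.36 (SE) with aPD1, with adjusted p-values of 0.0487 and 0.00466. Of all genes, 5.53% were called with isotype and 7.93% with aPD1. The isotype call stood at the threshold: it was lost in edgeR (0.142) and without any 1 of 11 of the 12 tumors (0.0688 to 0.129), the exception being the first CC080F1 isotype tumor, without which it was 5.99e-05. The aPD1 call held without each of the 11 tumors and in edgeR (0.0383), and was lost in limma with a random effect of host line (0.131). Between these aPD1 tumors DESeq2 also called 4 of 5 skeletal muscle genes higher and 3 of 3 B cell genes lower in R lines, and edgeR called 0 of either, with 5 and 3 at an unadjusted p under 0.05. Single libraries carried much of both: the summed muscle level was 0.496 to 519 CPM in R and 0.338 to 7.11 in NR aPD1 tumors, highest in the first CC001F1 tumor, and the summed B cell level was 0.812 to 4.24 in R and 2.06 to 73.8 in NR aPD1 tumors, highest in the CC080F1 tumor. Their part in the Csf3r difference was not tested.

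With aPD1 at 48 h, Csf3r was higher than with isotype in R lines. The 2 isotype and 2 aPD1 tumors had 357 and 419, then 436 and 1053 in CC001F1, and 424 and 389, then 723 and 734 in CC002F1. In CC075F1 they had 372 and 476, then 1660 and 457, so that 1 aPD1 tumor of this line lay below an isotype tumor. The log2 change over the 3 lines was 1.03 ± 0.32 (SE) with an adjusted p of 0.0345. In that test 5.26% of 15701 genes were called and the other 9 members were not, with an adjusted p given for 4 of the 10. Leaving out the first CC075F1 aPD1 tumor lowered the change to 0.71 and kept the call (0.031), as did leaving out the second (7.71e-05) or the first CC001F1 aPD1 tumor (0.00377), and it was lost without any other of the 12 tumors (0.0588 to 0.179) and in edgeR (0.107).

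In NR lines Csf3r changed by 0.32 ± 0.23 (SE) on the log2 scale (adjusted p of 1), and by -0.02 without CC036F1. None of the 10 genes was called in NR lines, where 0.0448% of 24552 genes were called, and 3 of them (Cxcl1, Cxcl2 and S100a9) had an unadjusted p under 0.05 in DESeq2, beside 3 in edgeR and 3 in limma, with no call in any of these tools. The difference between the classes in the effect of aPD1, tested as an interaction, was 0.72 ± 0.45 (SE) for Csf3r with an adjusted p of 0.891. No member was called in that test in DESeq2, edgeR or limma, and 0 of the 10 had an unadjusted p under 0.05 in DESeq2, 0 in edgeR and 2 in limma, against 0.0342% of all genes called in DESeq2. An effect that passed in R lines and not in NR lines was thus not shown to differ between them.

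**Figure D3:**
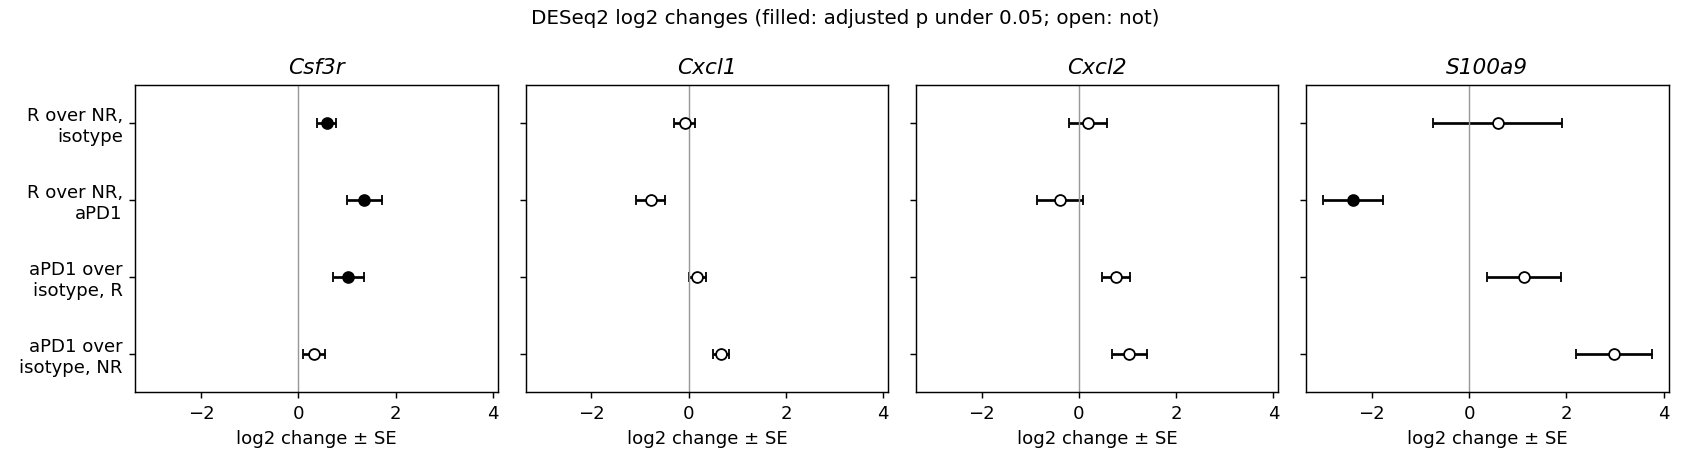
DESeq2 log2 changes with standard errors for Csf3r, Cxcl1, Cxcl2 and S100a9 in 4 comparisons, R over NR with isotype and with aPD1 and aPD1 over isotype in R and in NR lines. Filled points passed an adjusted p of 0.05 and open points did not or had no adjusted p. Csf3r is filled in 3 of the 4 and S100a9 in 1, at -2.39 in R over NR with aPD1.

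Genes of other myeloid cells moved in the same tumors as Csf3r. Over all tumors 4 of 7 monocyte and macrophage markers were higher in R lines, beside 14.4% of all genes called in either direction, namely C1qa (log2 change 0.57, adjusted p of 7.92e-06), Adgre1 (0.43, 0.00219), Cd68 (0.37, 0.00464) and Csf1r (0.33, 0.039, and 0.0757 in edgeR), while Ly6c2, Ccr2 and Lyz2 did not pass, and Ptprc, the common leukocyte antigen gene, was at 0.77 with an adjusted p of 8.42e-05. The summed level of the 7 markers was 1240 to 2470 CPM in R isotype tumors, 1050 to 2100 in NR isotype tumors, 1890 to 3250 in R aPD1 tumors and 1390 to 1860 in NR aPD1 tumors, and no marker of the list was at 0. Per 100 normalized counts of Ptprc, Csf3r had 5.92 to 8.25 in R isotype and 5 to 7.82 in NR isotype tumors. With aPD1 it had 5.93 to 12.0 in R and 4.92 to 10.9 in NR tumors. The medians on this scale, for R and NR, were 6.73 and 6.71 with isotype and 9.24 and 7.8 with aPD1. Per 100 counts of Adgre1 the medians were 8.97 and 6.19 with isotype and 12.8 and 7.60 with aPD1. The ranges per Adgre1 were 7.38 to 10.3 and 4.6 to 9.75 with isotype, and 8.79 to 18.9 and 6.53 to 12.0 with aPD1. Per 100 counts of Csf1r the medians were 4.27 and 3.19 with isotype and 6.24 and 3.21 with aPD1. R and NR ranges overlapped in both arms on each of these scales. The part of these cells in the Csf3r difference was not tested.

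**Figure D4:**
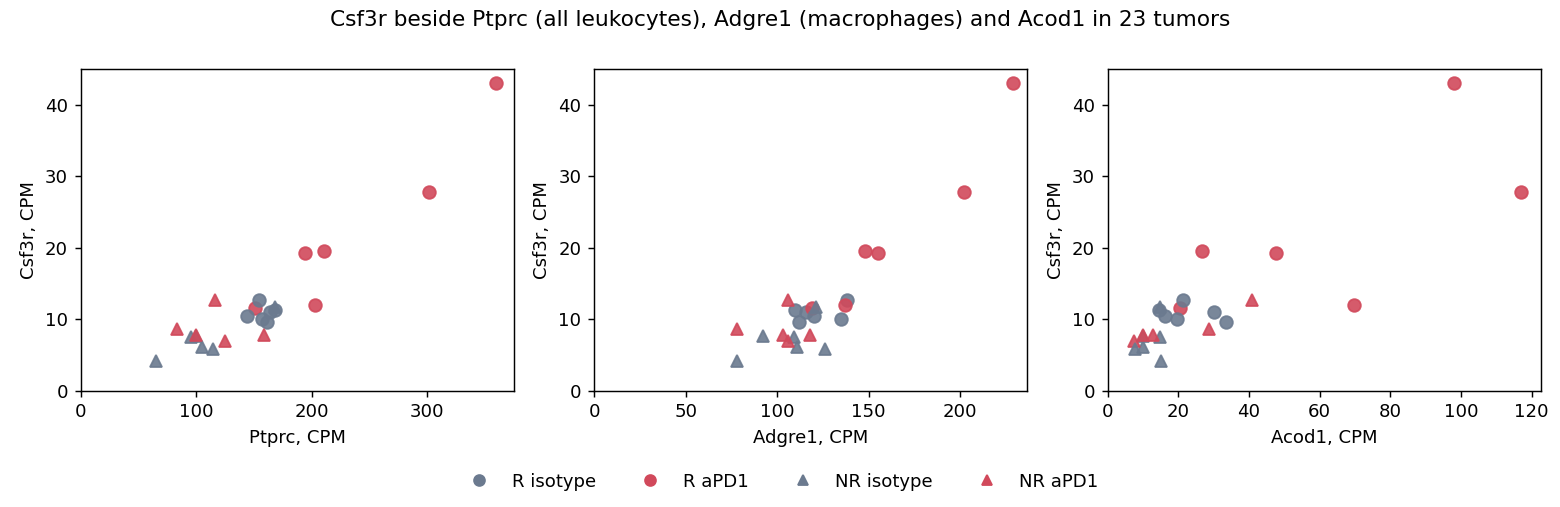
Csf3r in CPM against Ptprc, Adgre1 and Acod1 in CPM, 1 point per tumor, circles for R and triangles for NR hosts, coloured by antibody, with linear axes from 0. The tumors highest in Csf3r, an R aPD1 pair from CC075F1 and CC001F1, are also the highest in the other 3 genes.

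The genes whose pattern was most like that of Csf3r over the 23 tumors, by Pearson r of log2(CPM + 1) among 14876 genes averaging 20 or more normalized counts, were Pirb (0.948), Clec4a3 (0.943) and Fcer1g (0.936). For Cxcl1 they were Atp6v0d2 (0.86), F10 (0.851) and Lrp12 (0.826), and for Cxcl2 Rragc (0.754), Hmox1 (0.714) and F10 (0.712). These tumors share host lines in groups of up to 4, so the values are descriptions. F10, the gene of coagulation factor X, is the only gene on more than 1 of these 3 lists.

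Cxcr2, the receptor of the ELR chemokines at chr1:74153989-74161246, was low in every tumor, with 3 to 61 counts. It had 10.7 to 35.8 normalized counts in R isotype tumors, 7.96 to 15.9 in NR isotype, 7.70 to 23.3 in R aPD1 and 6.72 to 19.96 in NR aPD1 tumors. The CC075F1 isotype tumors were the highest, at 35.8 and 27.6, and the aPD1 tumors of that line had 13.2 and 7.70, the latter from 3 counts. No test called it: its log2 change in R over NR was 0.38 ± 0.28 (SE) with an adjusted p of 0.408, and with aPD1 over isotype 0.13 ± 0.30 with 0.915.

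S100a9, at chr3:90692632-90695721, was highest in NR tumors with aPD1. The values with isotype and then with aPD1 were 4.35 and 0, then 59.3 and 76.2 in CC036F1, and 2.07 and 17.8, then 18.6 and 40.3 in CC079F1. In CC080F1 they were 2.18 and 0, then 7.49. In R lines they were 5.23 and 0, then 11.1 and 12.3 in CC001F1, 0 and 0, then 1.75 and 3.16 in CC002F1, and 11.2 and 21.5, then 9.45 and 10.3 in CC075F1. Every aPD1 tumor was above every isotype tumor of its line in each line but CC075F1, where the order was reversed, and the CC036F1 aPD1 tumors rested on 95 and 126 counts while no other tumor had more than 28.

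Among aPD1 tumors S100a9 was lower in R than in NR lines, with a log2 change of -2.39 ± 0.63 (SE) and an adjusted p of 0.00405. R values of 1.75 to 12.3 overlapped NR values of 7.49 to 76.2 through the CC080F1 tumor. The call held without each of the 11 tumors, at -2.67 to -2.02, but was lost without the CC036F1 line (-1.46, adjusted p of 0.322), in edgeR (0.0519), in limma (0.149) and with counts summed per line (0.156). With isotype the log2 change was 0.59 ± 1.32 (SE), with no adjusted p.

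Over all lines S100a9 was higher with aPD1, with a log2 change of 2.12 ± 0.60 (SE) and an adjusted p of 0.0269. With Cxcl2 it was 1 of 2 members called, of 6 with an adjusted p, where 2.79% of 16638 genes were. Without 1 tumor at a time the call held in 8 of 23 fits and was lost in 5, without the second CC001F1 aPD1 (0.0589), the second CC002F1 isotype (0.0502), the first CC036F1 isotype (0.0541), the first CC079F1 isotype (0.0533) or the second CC079F1 aPD1 tumor (0.0569). In the other 10 fits DESeq2's filter gave no adjusted p, and edgeR gave 0.171. In NR lines alone the change was 2.98 ± 0.78 (adjusted p of 0.162), and in R lines 1.13 ± 0.77 with no adjusted p. The interaction was -1.80 ± 1.15 with an adjusted p of 0.903.

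S100a8, the partner gene of S100a9, 22.6 kb away at chr3:90668978-90670035, had 0 to 20.5 normalized counts with isotype and 1.70 to 39.3 with aPD1. Its highest values were in the second CC036F1 aPD1 tumor (39.3), the second CC079F1 aPD1 tumor (31.4) and the first CC075F1 aPD1 tumor (27.4). The log2 change with aPD1 over all lines was 1.32 ± 0.59 (SE) with an adjusted p of 0.26, and it did not pass in either class. Calprotectin genes are also transcribed in keratinocytes, and of 7 keratinocyte genes Krt1, Lor and Krtdap never exceeded 10 counts, and the summed level of the list was 2.66 to 6.70 CPM over all tumors and 3.82 and 5.75 CPM in the CC036F1 aPD1 tumors. The second of these had 0 counts of Krt5, 0.648 CPM of Krt14, 3.9 of Krt10 and 1.2 of Sbsn, which was the highest Sbsn level of the 23, and the part of keratinocytes in the S100 levels was not tested. Retnlg was called in no comparison, and its aPD1 tumors had 0 to 7.49 normalized counts against 0 to 2.07 with isotype.

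Correlations between members were computed over the tumors. The permutation test below shuffled all tumors together, without regard to host line or antibody. Genes that share line or antibody differences can pass it, so its p-values do not test a relation within a line and antibody. Among the 45 pairs of members, 5 passed a two-sided permutation test of Pearson's r on log2(CPM + 1) over 23 tumors after adjustment over the 45. They were S100a9 with Cxcl2 (r = 0.755, Spearman's rho = 0.758, permutation p = 0.0001, adjusted 0.00225), Cxcl1 with Cxcl2 (r = 0.725, rho = 0.691, permutation p = 8e-05, adjusted 0.00225) and S100a8 with Cxcl2 (r = 0.71, rho = 0.618, permutation p = 0.0002, adjusted 0.003). S100a9 with Cxcl1 (r = 0.751, rho = 0.434) and S100a8 with S100a9 (r = 0.617, rho = 0.441) passed with adjusted permutation p-values of 0.00574 and 0.0205 for r but not for rho, at 0.214 each. The pair S100a8 with S100a9 was lost with a pseudocount of 0.1 (adjusted permutation p = 0.0733) and in the 17 deep libraries (0.0743). S100a8 with Cxcl1 (r = 0.508, rho = 0.31) did not pass, with adjusted permutation p-values of 0.104 and 0.357. In the 17 deep libraries S100a8 with Cxcl1 did pass (r = 0.678, adjusted permutation p = 0.0361). Csf3r had r = 0.001 with S100a9, 0.044 with Cxcl1 and 0.246 with Cxcl2, and was in none of the 5 pairs.

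These relations rested in part on a few tumors. Without the 2 tumors farthest from the median of the first gene, which were both CC036F1 aPD1 tumors for S100a9 and for Cxcl1, r fell to 0.584 for S100a9 with Cxcl2, 0.529 for Cxcl1 with Cxcl2, 0.294 for S100a9 with Cxcl1, 0.582 for S100a8 with Cxcl2 and 0.278 for S100a8 with S100a9, and none passed. Without the CC036F1 line, Cxcl1 with Cxcl2 passed (r = 0.7, adjusted permutation p = 0.0405) and the other 4 did not. With values centred within each line and antibody, r for Cxcl1 with Cxcl2 was 0.707. Its two-sided p was 0.0527 before adjustment, from all 2048 swaps of the 2 tumors in 11 groups. Centred r was 0.53 for S100a9 with Cxcl2 (p = 0.262 from the same exact swaps) and 0.521 for S100a8 with S100a9 (0.172). It was 0.433 for S100a8 with Cxcl2 (0.189) and 0.210 for S100a9 with Cxcl1 (0.541). No pair passed after adjustment.

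**Figure D5:**
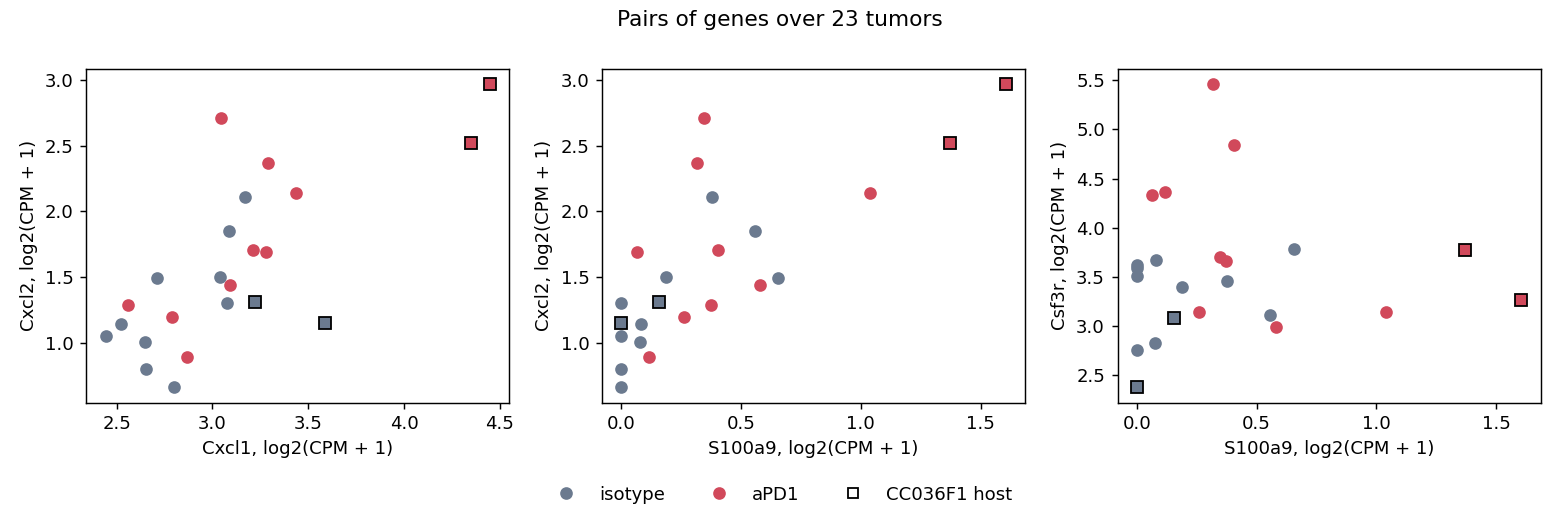
log2(CPM + 1) of Cxcl2 against Cxcl1, Cxcl2 against S100a9 and Csf3r against S100a9, 1 point per tumor, coloured by antibody, with squares for CC036F1 hosts. The 2 CC036F1 aPD1 tumors lie at the upper right of the first 2 panels, where r was 0.725 and 0.755, and r was 0.001 in the third.

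Genes that act around these 10 were read from lists. Of 15 inducers and signalling genes of G-CSF and the chemokines, 5 rose with aPD1 in R lines, where 5.26% of all genes were called: Socs3, a feedback inhibitor of G-CSF receptor signalling (log2 change 0.81, adjusted p of 2.6e-05), Tnf (1.10, 0.000247), Nfkbiz, a cofactor of NF-kB (0.49, 0.00121), Il1b (0.79, 0.00279) and Stat3 (0.36, 0.0166). The list's median, over the 11 genes with an adjusted p, was 0.48 against -0.01 for all genes tested, and none of the 5 passed in edgeR, which called 0 of 17945 genes there and had 2407 at an unadjusted p under 0.05. In NR lines 0 of the 15 passed in DESeq2 or edgeR and 4 had an unadjusted p under 0.05 in each, with a median of 0.24 against 0.01 for all genes. Over all lines Il1b (0.75, 0.000809), Socs3 (0.55, 0.00131), Stat3 (0.26, 0.0208) and Nfkbiz (0.31, 0.0413) rose, and none passed in edgeR. Il17a and Il17f, cytokines known to induce Csf3 and Cxcl1, never exceeded 10 counts.

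In R over NR lines, where 14.4% of all genes were called, 3 of the 15 were higher, Il17ra (0.20, 0.00441), Socs3 (0.39, 0.0165) and Tnf (0.54, 0.0263; 0.0671 in edgeR), and the list's median over 12 genes was 0.21 against 0.00 for all genes. Tnf and Socs3 were also higher in R lines within the aPD1 tumors (1.2, 5.52e-05 and 0.69, 0.00392). In edgeR Tnf passed there (0.0229) and Socs3 did not (0.0608). For Tnf alone among the 15 the effect of aPD1 differed between classes in DESeq2 (interaction 1.31 ± 0.30 (SE), adjusted p of 0.0297), and in edgeR it did not pass (0.553).

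Of 13 granule and maturation genes in the table, 0 were called in R over NR by DESeq2 or edgeR, with 2 at an unadjusted p under 0.05 in each and a median of -0.02 over the 9 with an adjusted p. With aPD1 over all lines 0 were called by either tool, with 3 and 2 at an unadjusted p under 0.05 and a median of 0.67 over 7 genes, against 0.00 for all genes. The summed level of that list, 119 to 456 CPM, came largely from 1 gene, Mmp9 (gelatinase B), at 101 to 450 CPM. Between host lines 2 of the 13 differed, of 10 with an adjusted p, beside 16% of all genes with an adjusted p. They were Chil3 (adjusted p of 2.75e-05 in DESeq2 and 0.00459 in edgeR) and Mmp8 (0.00782 and 0.0652). Chil3, a chitinase-like gene of myeloid cells, had 33.9 CPM in the second CC036F1 aPD1 tumor and at most 7.50 in any other.

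Of 18 genes of mature or tumor neutrophils in the table, 3 were higher and 1 lower in R than in NR lines, beside 14.4% of all genes called. Acod1, the itaconate-producing enzyme of activated macrophages and neutrophils, was at 1.26 (adjusted p of 0.00144), Trem3 at 1.37 (0.00837) and the lectin gene Clec4d at 0.80 (0.0413, and 0.0592 in edgeR), and G0s2, a lipolysis inhibitor, at -0.79 (0.0126). Mean Trem3 normalized counts were 55.75 with isotype and 107 with aPD1 in CC075F1. In the other R lines they were 18.4 to 27.5 and in the NR lines 9.2 to 25.0, so these overlapped. The list's median, over the 12 with an adjusted p, was 0.22 against 0.00 for all genes. With aPD1 in R lines, Cxcr4 (0.34, 0.00401), Acod1 (1.48, 0.00774) and Clec4d (1.34, 0.0258) rose, and over all lines Clec4d (1.06, 0.0127), Acod1 (1.01, 0.0214), Il1r2 (0.92, 0.0327) and Clec4e (0.65, 0.0474), with none of these passing in edgeR. Stfa1, Stfa2l1, Stfa3, Wfdc21 and Mrgpra2b of the same list never exceeded 10 counts.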

How the data were processed

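Poly(A) RNA of 23 MC38 tumors was sequenced as 100 bp paired-end reads. Per the study's methods, the authors aligned reads with Bowtie 1.2.3 to transcriptomes of the founder strains on GRCm38 with GENCODE vM23 genes, and deposited expected counts per gene (16.95% of values were not whole). These deposited estimated counts were rounded. The 26869 identifiers were named with GENCODE vM21 (26681 matched). Genes with at least 5 summed counts entered DESeq2 1.42.0 (Wald tests, or a likelihood ratio test for host line), with Benjamini-Hochberg adjustment over all genes and a threshold of 0.05. edgeR 4.0.16 and limma 3.58.1 were alternatives. On simulated data the tests recovered the changes put in. The likelihood ratio test passed more unchanged genes than its threshold allows, so edgeR stands beside it. Changes were put only into genes with higher counts than S100a8, S100a9, Cxcr2, Cxcl5, Csf3, Retnlg and Ly6g. Every simulated gene had the same dispersion, and tumors were drawn independently. The simulation therefore does not cover those members, nor tumors of a host line that resemble each other. CPM used TMM library sizes. R and NR come from the study's text, genotype and antibody from the labels. Permutation tests used 100000 resamples.

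The 10 members and all gene lists were chosen with earlier results of these data known. All 10 members are named. From each list up to 6 genes per comparison are named, those with the smallest adjusted p among those called, and the 3 genes most like a member are taken by Pearson's r. Library totals of 14493982 to 71868238 counts limit precision for genes near 0. Other settings tried were TMM factors, no filter, a mean of at least 10 counts, the 17 deep libraries, the replicate number as a block, each tumor left out, and counts summed per line. Leaving out CC036F1 was chosen after seeing the data. Ngp, Fcnb, Stfa2 and BC100530 were not matched and are not analysed here. Promoters came from a RefSeq table on GRCm38.p6.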

Additional observations from a re-analysis of the deposited data

Results flagged for a closer look

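In 3 of 40 sets of 5 or 6 tumors (1 gene in 1 class with 1 antibody) a single tumor lay far from the rest on the log2 scale. For continuous values chance alone picks out about 1 in 20 such sets, a rate that does not hold here, since every other tumor of the 3 sets was at 0 and 2 to 4 counts in 1 tumor are then enough. Ly6g had 8.96 normalized counts, from 4 counts, in the second CC079F1 aPD1 tumor and 0 in the other NR aPD1 tumors. Retnlg had 2.07 normalized counts in the first CC079F1 isotype tumor and 1.18 in the first CC075F1 isotype tumor, from 2 counts each, with 0 in the rest of their sets. The Ly6g library was 1 of the 6 shallow ones and also held the highest Cxcl5 value (29.1) and the second highest S100a8 value (31.4).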

How the results depend on the processing

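Which of the 10 genes pass depends on tool and line. Csf3r in R over NR over all tumors was the 1 call in every alternative, and no alternative called a member in the interaction test. With isotype the count fell from 1 to 0 in edgeR, with a mean of at least 10 counts, in the 17 deep libraries, in limma with a random line effect, with counts summed per line and without CC036F1, and was 0 to 1 without single tumors. With aPD1 it fell from 2 to 1 in edgeR, summed per line and without CC036F1, and to 0 in limma, and was 2 to 3 without single tumors (Cxcl1 passing at -0.92 and -0.96 without the CC079F1 aPD1 replicate 1 or the CC080F1 aPD1 tumor). For aPD1 in R lines it fell from 1 to 0 in edgeR and limma and was 0 to 2 without single tumors, with Cxcl2 added without the first CC001F1 aPD1 tumor (0.91). In NR lines it rose from 0 to 1 in the deep libraries (S100a9, 3.92) and to 0 to 2 without single tumors, S100a9 (3.22 to 4.02) and Cxcl1 (0.69 to 0.76) both passing without the second CC079F1 isotype, first CC079F1 aPD1, first CC080F1 isotype or CC080F1 aPD1 tumor. Over all lines it fell from 2 to 1 with TMM factors and in the deep libraries and to 0 in edgeR, limma and without CC036F1, and was 1 to 3 without single tumors. Under TMM factors and without CC036F1, S100a9 had no adjusted p. For host line it fell from 4 to 2 without CC036F1 and was 3 to 4 without single tumors. Of the correlations, 5 passed, 0 after centring, 0 without the 2 farthest tumors and 1 without CC036F1. The cause was not tested in any of these.

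The labels do not say whether equal replicate numbers pair tumors. The correlation of their differences between antibodies within a line was -0.05 to 0.24 in 5 lines, and 2 were above 0.1. Such values cannot settle whether the numbers mark pairs or a batch. All shallow libraries but the first CC036F1 isotype tumor had replicate number 2. Among all genes, calls with the replicate block rose from 11 to 52 for aPD1 in NR lines and from 9 to 121 in the interaction. They fell from 826 to 714 in R lines and from 464 to 417 over all lines. With the replicate block the members called went from 1 to 0 for aPD1 in R lines (Csf3r, adjusted p of 0.0605), from 0 to 1 in NR lines (Cxcl1, 0.00401) and from 2 to 1 over all lines, where S100a9 had no adjusted p, and other comparisons kept their counts.

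Sign changed only for values that did not pass. Without CC036F1, Csf3r for aPD1 in NR lines went to -0.021, Cxcl1 in R over NR to 0.11 over all tumors and 0.25 with isotype, and Cxcl2 to 0.24 over all tumors, 0.37 with aPD1 and 0.40 in the interaction. In limma Cxcl1 with isotype was 0.035. Without single tumors, Cxcl2 over all tumors ranged from -0.279 to 0.088 and with isotype from -0.15 to 0.44, Cxcl1 with isotype from -0.18 to 0.11, and S100a9 with isotype from -0.33 to 1.92. In edgeR all genes called fell to 28 with isotype, from 826 to 0 for aPD1 in R lines and from 464 to 6 over all lines. Depth limits Ly6g, Retnlg, Csf3 and Cxcl5, which are at a few counts, and S100a8, S100a9 and Cxcr2 in the shallow libraries.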
